A study of Homo sapiens with 3 samples.

Results

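The genes described here are 40 human genes of the endoplasmic reticulum stress response in NCI-H1650, an established lung adenocarcinoma line. They comprise 6 stress sensors and transcription factors, 11 chaperones and partners of chaperones, 6 disulfide enzymes, 11 factors of protein degradation, and 6 factors of translocation, processing and export. They were chosen by gene symbol from the platform annotation of the Affymetrix HG-U133 Plus 2.0 array, and 39 of the 40, among 19775 genes on the array, had at least 1 probe set annotated to that gene alone. The exception was SYVN1, the ubiquitin ligase HRD1, whose 1 probe set was also annotated to a microRNA gene. All 39 were measured, meaning above the floor of 61.4 signal units on at least 1 array, as were 12351 genes in all.

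The study held 3 arrays in 3 groups: control NCI-H1650 cells, cells exposed to 40 μM colossolactone H (a triterpenoid of the fungus Ganoderma colossum, written colo H in the labels) for 12 h, and cells exposed to 40 μM for 24 h. All groups were the same line, and the labels name no engineered allele. The labels give neither a vehicle for the control nor the time at which it was collected. With 1 array a group there was no replicate spread, so every difference below describes these arrays, has no error and no p-value, and its precision is limited by the number of arrays. Values are MAS5 signal units, scaled by the authors to a common level on each array, so a difference is relative to the rest of the array's signal, and fewer cells of a type and less RNA per cell cannot be told apart.

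The endoplasmic reticulum folds secreted and membrane proteins with the help of chaperones and of enzymes that form disulfide bonds. When unfolded protein builds up, the membrane sensors IRE1 (ERN1), PERK (EIF2AK3) and ATF6 signal to the nucleus. IRE1 splices the mRNA of XBP1, ATF6 is cut by Golgi proteases to release a transcription factor, and PERK phosphorylates eIF2α, which lowers general translation and favours that of ATF4. ATF6 and spliced XBP1 raise chaperones and degradation factors, and ATF4 raises amino acid genes and CHOP (DDIT3). The arrays measured mRNA of both XBP1 forms together with no separation of spliced from unspliced transcript, and they did not measure cleavage of ATF6 or phosphorylation of PERK.

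ATF6 and XBP1 are known to act through short promoter elements, so the 250 bases before each annotated transcript start were read from RefSeq promoters of GRCh38.p14, which held 36 of the 40 genes. The ER stress response element ERSE was searched as CCAAT followed after 9 bases of any kind by CCACG, ERSE-II as ATTGG followed after 1 base of any kind by CCACG, and the unfolded protein response element UPRE as TGACGTGG, each on both strands and by exact letters. An ERSE stood before 8 of the 36 genes (22.2%), against 0.0916% of all 27305 genes with a listed promoter and 0.074% of the 35116 promoters. An ERSE-II stood before HERPUD1, HYOU1 and SDF2L1 (8.33% of the 36), against 0.0659% of all genes and 0.0513% of promoters. The UPRE was found before HYOU1 and SSR3 (5.56% of the 36), against 0.78% of all genes and 0.612% of promoters, and in HYOU1 it overlapped the ERSE-II farther from the start. The genes were listed for their place in this response, so the high share describes the list, and a match is a run of letters and not a bound site. The promoters of the 5 genes with an element that stood highest at 24 h are printed here with the fixed letters of each match in capitals, 5′ to 3′ on the gene's own strand. HSPA5 lies at chr9:125241344-125241593, minus strand. HSP90B1 lies at chr12:103930160-103930409, plus strand. XBP1 lies at chr22:28800570-28800819, minus strand. HERPUD1 lies at chr16:56931892-56932141, plus strand. HYOU1 lies at chr11:119057206-119057455, minus strand.
HSPA5: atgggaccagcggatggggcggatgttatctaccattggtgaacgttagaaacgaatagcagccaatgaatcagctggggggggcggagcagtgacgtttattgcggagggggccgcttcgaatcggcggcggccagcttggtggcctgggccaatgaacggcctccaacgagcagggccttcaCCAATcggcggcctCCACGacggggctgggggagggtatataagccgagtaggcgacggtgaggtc
HSP90B1: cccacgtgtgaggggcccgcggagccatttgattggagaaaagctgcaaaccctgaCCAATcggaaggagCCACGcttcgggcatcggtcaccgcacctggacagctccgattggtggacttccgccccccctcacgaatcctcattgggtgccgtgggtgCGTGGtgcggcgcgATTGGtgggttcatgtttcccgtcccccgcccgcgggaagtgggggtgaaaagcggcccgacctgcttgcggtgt
XBP1: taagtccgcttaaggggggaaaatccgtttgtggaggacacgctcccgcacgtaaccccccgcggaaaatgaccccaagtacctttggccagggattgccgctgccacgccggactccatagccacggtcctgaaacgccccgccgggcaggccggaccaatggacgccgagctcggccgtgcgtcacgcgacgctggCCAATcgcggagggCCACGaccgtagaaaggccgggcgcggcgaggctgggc
HERPUD1: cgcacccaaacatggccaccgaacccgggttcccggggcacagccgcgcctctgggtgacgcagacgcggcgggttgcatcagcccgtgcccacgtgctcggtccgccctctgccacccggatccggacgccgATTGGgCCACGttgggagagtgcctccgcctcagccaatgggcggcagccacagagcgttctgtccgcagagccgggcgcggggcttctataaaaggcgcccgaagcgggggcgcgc
HYOU1: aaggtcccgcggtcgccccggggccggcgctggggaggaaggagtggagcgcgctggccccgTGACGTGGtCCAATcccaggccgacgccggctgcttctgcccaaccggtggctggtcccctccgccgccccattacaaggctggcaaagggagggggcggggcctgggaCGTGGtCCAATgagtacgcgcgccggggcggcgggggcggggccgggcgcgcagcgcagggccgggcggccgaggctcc

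The other 6 genes with an ERSE or ERSE-II are shown by the matched stretch alone, with the spacer in lower case, so that the fixed letters can be compared in both orientations.
ERO1B: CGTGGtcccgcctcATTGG
CANX: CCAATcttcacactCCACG
SDF2L1: CGTGGaCCAAT
CRELD2: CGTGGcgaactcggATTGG
CALR: CGTGGtcgaccatcATTGG
PDIA6: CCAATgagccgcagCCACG

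All 11 genes with an ERSE or ERSE-II were above the control at 12 h, with a median log2 difference of 0.20, and 10 of 11 were above it at 24 h, with a median of 0.43, against 50.2% and 48.8% of all measured genes. The exception at 24 h was PDIA6 at -0.01. Those at least 1.5-fold higher at 24 h were HSP90B1, HSPA5 and XBP1, against 4.09% of measured genes. The size for HSP90B1 depended on the probe set read, as described below. Of the 24 measured genes whose listed promoter held neither element, 18 were higher at 12 h and 19 at 24 h, with a median of 0.16 at both times. The absence of a match says only that these letters were not in this window. Among 21 measured genes outside the 40 that carried an ERSE or ERSE-II, 12 were higher at 12 h and 11 at 24 h, with medians of 0.02 and 0.01. These groups were described and not tested.

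**Figure D1:**
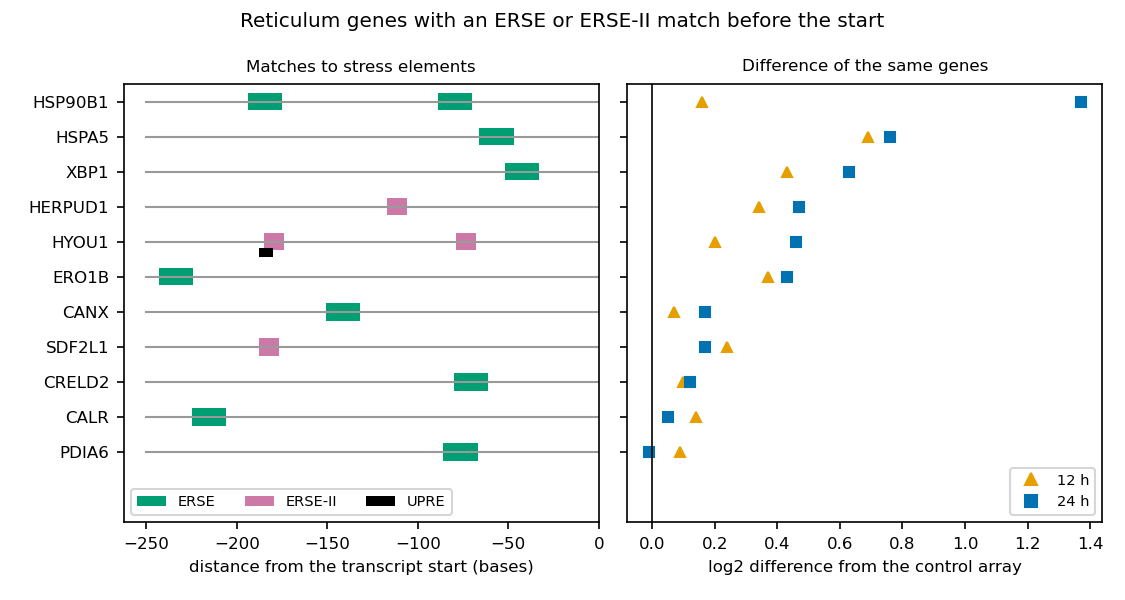
The left panel maps matches to ERSE, ERSE-II and UPRE by distance in bases from the transcript start (0 at the right) for the 11 genes with an ERSE or ERSE-II, and the right panel gives the log2 difference of each gene from the control array at 12 h and 24 h (1 array each). HSP90B1, with ERSE matches that begin 194 and 89 bases before the start, lies at 0.16 and 1.37, while PDIA6, with a match that begins 86 bases before it, lies at 0.09 and -0.01. A brighter HSP90B1 probe set, annotated also to a microRNA gene and not used for the gene value, was at 0.17 at 24 h.

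As a whole, the reticulum genes stood slightly above the control at both times, and few stood far above it. At 12 h 33 of 39 were higher (84.6%, against 50.2% of all measured genes), with a median log2 difference of 0.17 against 0.00 over all measured genes. At 24 h the counts were again 33 of 39 and the median again 0.17, against 48.8% and 0.00. A single control array serves both times, so the 12 h and 24 h counts share it and are not independent. At least 1.5-fold higher at 12 h were 3 of 39 (7.69%), namely ERN1, HSPA5 and DERL3, against 3.41% of measured genes. At 24 h the 5 were HSP90B1, HSPA5, DERL3, ERN1 and XBP1 (12.82%), against 4.09%. At least 1.5-fold lower was CREB3L2 at 12 h, 1 of 39 against 3.11% of measured genes, and none at 24 h, against 4.92%. With the gene value taken as the median over probe sets, or from transcript-specific probe sets only, 3 genes were 1.5-fold higher at 24 h in each case, and 0 were 1.5-fold lower at 12 h. The second of these settings left fewer genes and gave no value for HSP90B1. The share of all measured genes was not counted under either.

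Genes differ in signal strength, so the brighter ones were also counted alone. Of the 33 reticulum genes with a mean signal of at least 1000, 1 was 1.5-fold higher at 12 h (3.03%), against 1.53% of the 5569 measured genes as bright, and CREB3L2 was 1.5-fold lower, against 1.11%. At 24 h 3 of 33 were higher (9.09%), against 2.26%, and 0 lower, against 2.86%. From 12 h to 24 h the list as a whole moved little, with 20 of 39 higher (51.3%, against 46.3% of measured genes) and a median of 0.01. HSP90B1 was the 1 gene at least 1.5-fold higher, against 1.46%, and 0 were 1.5-fold lower, against 1.92%.

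**Figure D2:**
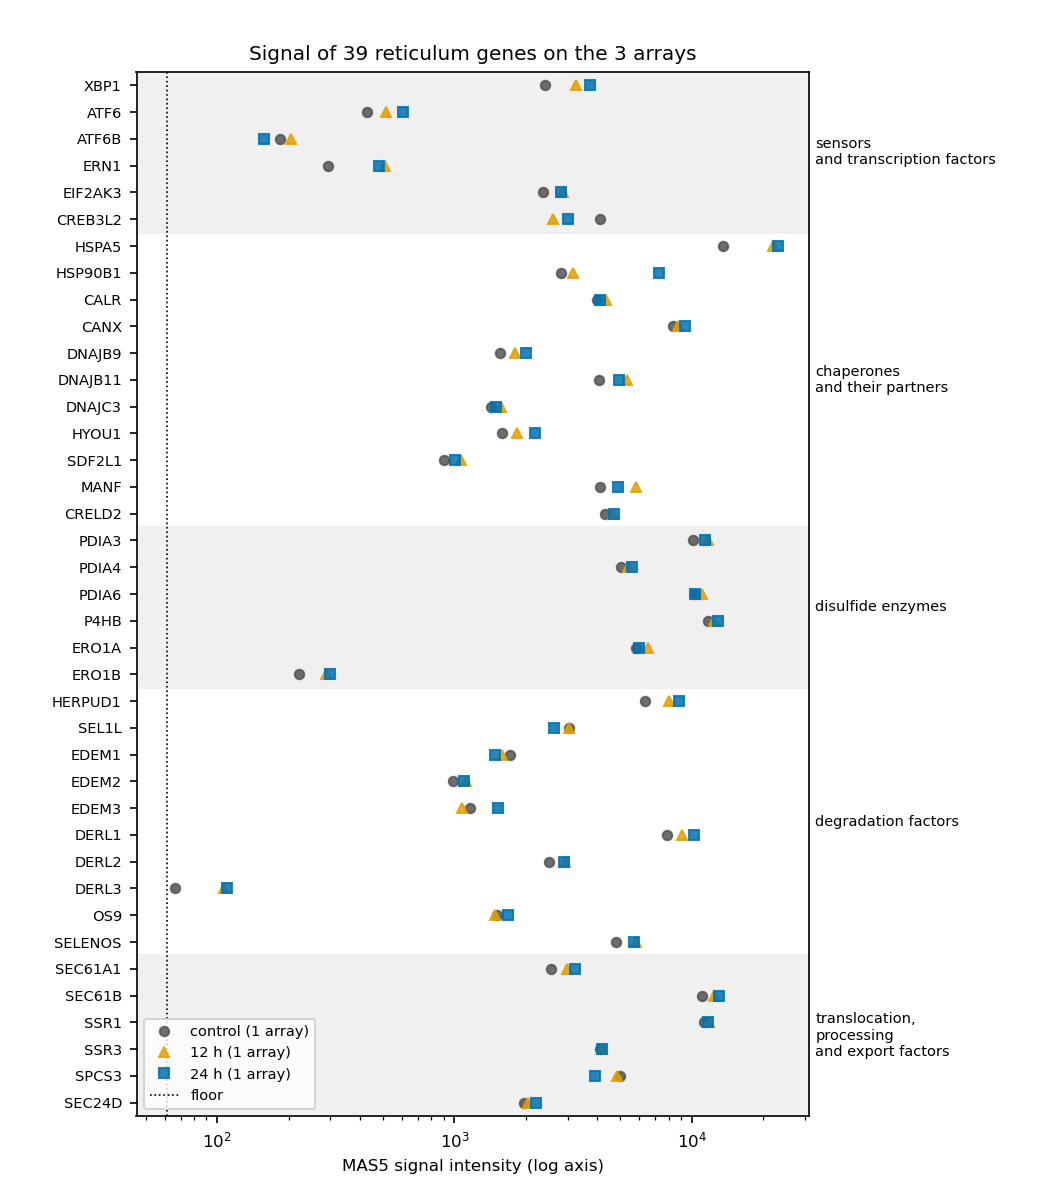
MAS5 signal intensity on a log axis for each of the 39 measured genes on the control, 12 h and 24 h arrays (1 point per array), grouped by role, with the floor of 61.4 as a dotted line. Points are to be compared along a row only, since probe sets of different genes differ in response. The widest rows are HSP90B1, from 2825 to 7303.3, and those of HSPA5, ERN1, DERL3 and CREB3L2.

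Of the 6 sensors and transcription factors 5 were higher at 12 h (83.3%, against 50.2% of all measured genes) and 4 at 24 h (66.7%, against 48.8%), with a median difference of 0.27 and then 0.38. ERN1 (IRE1, Entrez gene 2081, chromosome 17), which splices XBP1 mRNA, read 292.6 untreated, 508.4 after 12 h and 480.1 after 24 h. Both treated arrays were above the control, by 1.74-fold and 1.64-fold. Of all measured genes 1.21% were as far above the control at 12 h, and 2.25% at 24 h. A second ERN1 probe set read 127.8, 262.6 and 295.9, differences of 1.04 and 1.21, and the third lay at the floor in the control and at 12 h and read 88.9 at 24 h. XBP1 (Entrez gene 7494), the transcription factor made from the spliced mRNA, read 2414.9, 3242.9 and 3741.3, differences of 0.43 and 0.63. Its other probe set, near the floor, read 126.9, 102 and 102, which is lower by 0.32 at both times, so the 2 probe sets of XBP1 disagreed in direction.

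The other sensors differed less. ATF6 (Entrez gene 22926) read 428.3, 511.9 and 608.5 on its brightest probe set, differences of 0.26 and 0.51. Of its 4 probe sets 1 was lower at both times, reading 470.6, 446 and 392.9. The ATF6 probe sets thus did not agree, and their median at 24 h was 0.13. EIF2AK3 (PERK, Entrez gene 9451), the kinase of eIF2α, read 2362.4, 2865.7 and 2814.9, differences of 0.28 and 0.25, and both treated arrays were above the control. ATF6B, the paralogue of ATF6, read 183.1, 204.7 and 157.2, so the treated arrays lay on either side of the control.

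CREB3L2 (BBF2H7, Entrez gene 64764), a transmembrane transcription factor of the ATF6 type that governs secretory pathway genes in cartilage, was the one sensor lower at both times. Its signal was 4116.5 untreated, 2604 after 12 h and 3018.3 after 24 h, which is 1.58-fold and 1.36-fold lower. Only 2.26% of measured genes were as low at 12 h, and 9.38% at 24 h. A transcript-specific probe set read 243.3, 227.4 and 219.9, differences of -0.10 and -0.15, so it shared the direction but not the size.

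**Figure D3:**
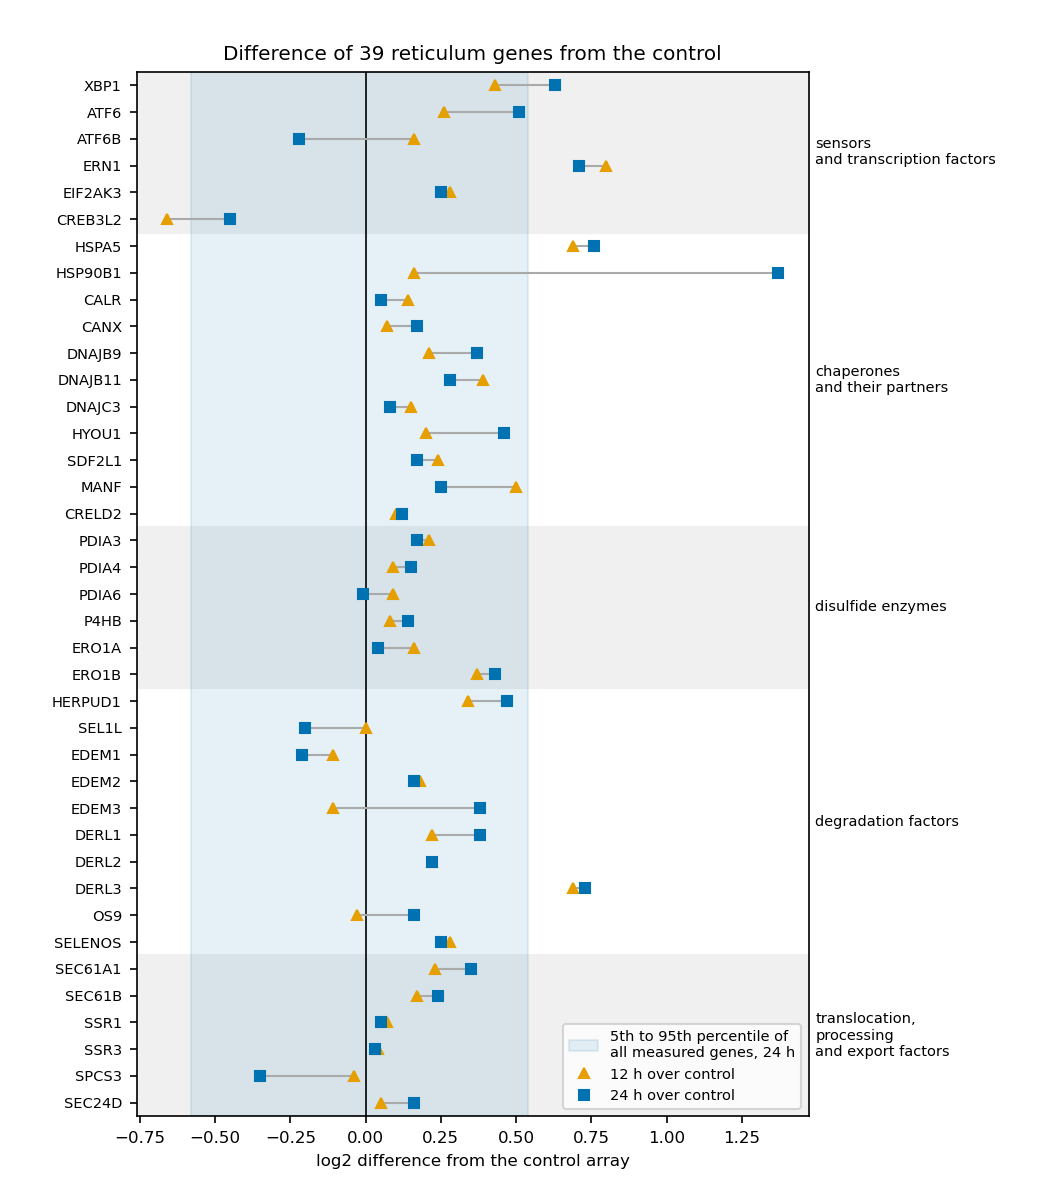
Log2 difference from the control array at 12 h (triangles) and 24 h (squares) for each of the 39 measured genes, 1 array per time, with a line joining the 2 times. The blue band spans the 5th to 95th percentile of all measured genes at 24 h, -0.58 to 0.54, and HSP90B1, HSPA5, DERL3, ERN1 and XBP1 have 24 h points beyond it.

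On their brightest single-gene probe sets, all 11 chaperones and their partners were above the control on both treated arrays. Of all measured genes, 50.2% were higher at 12 h and 48.8% at 24 h. The median difference of the 11 was 0.20 at 12 h and 0.25 at 24 h. Some dimmer probe sets of CALR, CANX and DNAJC3 were lower. HSPA5 (BiP, Entrez gene 3309), the main HSP70 of the reticulum and the protein that holds the sensors inactive, read 13605.5, 21919.4 and 23108.1. It was 1.61-fold and 1.70-fold above the control, a distance reached by 2.08% and 1.71% of measured genes. Its second probe set read 681, 974.8 and 936.9, differences of 0.52 and 0.46, so both probe sets agreed in direction.

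HSP90B1 (GRP94, Entrez gene 7184), the HSP90 of the reticulum, was higher mainly at 24 h. It read 2825 untreated, 3150.2 after 12 h and 7303.3 after 24 h. The 12 h array was close to the control and the 24 h array was 2.59-fold above it, which made it the 1 reticulum gene past 2-fold, against 0.591% of measured genes. No reticulum gene was 2-fold higher at 12 h, against 0.445%, or 2-fold lower at either time, against 0.437% and 0.64%. Only 0.113% of measured genes were as high at 24 h. Its second single-gene probe set read 274.5, 291.6 and 571.6, differences of 0.09 and 1.06. Both of these probe sets have names ending in _x_at, which marks probes that may also bind other transcripts.

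A pair of further probe sets was annotated to HSP90B1 together with the microRNA gene MIR3652 and entered no gene value. The brighter one read 15871.8, 17572.3 and 17864.2, differences of 0.15 and 0.17. The other read 3126, 3559.4 and 9842, differences of 0.19 and 1.65. At 12 h the 4 probe sets lay together, between 0.09 and 0.19. At 24 h 3 of them lay between 1.06 and 1.65 and the brightest stayed at 0.17, so the size of the 24 h difference depended on the probe set read.

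The cofactors of BiP were higher by less. MANF (Entrez gene 7873), a small secreted protein that binds BiP, read 4100.2, 5814.7 and 4881.5, differences of 0.50 and 0.25. It was highest at 12 h. DNAJB11 (ERdj3), a J-domain cochaperone that brings unfolded protein to BiP, was likewise nearer the control at 24 h, at 0.39 and then 0.28. DNAJB9 (ERdj4), a J-domain protein that also represses IRE1, was at 0.21 and 0.37, and all 3 of its probe sets were higher at both times, up to 0.58 and 0.56. HYOU1 (GRP170), the nucleotide exchange factor of BiP, was at 0.20 and 0.46. DNAJC3 (p58IPK), which restrains PERK, was at 0.15 and 0.08. Its 4 probe sets lay between -0.23 and 0.62 at 12 h and between -0.25 and 0.54 at 24 h. SDF2L1, a partner of ERdj3, was at 0.24 and 0.17, and CRELD2, a stress-induced luminal protein, at 0.10 and 0.12.

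The lectin chaperones, which hold glycoproteins during folding, were near the control. CALR (calreticulin) was at 0.14 and 0.05, with 1 of its 3 probe sets slightly lower at both times. CANX (calnexin) was at 0.07 and 0.17, and its probe sets lay between -0.13 and 0.40 at 24 h. Thus, on the brightest single-gene probe sets, HSPA5 was 1.5-fold higher at both times and HSP90B1 at 24 h. The other 9 chaperone genes stayed within 0.50 on these probe sets, while dimmer ones of DNAJB9 and DNAJC3 went beyond it.

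The 6 disulfide enzymes had a median difference of 0.13 at 12 h and of 0.15 at 24 h, and none of the 6 reached 1.5-fold. Of all measured genes 3.41% and 4.09% were at least 1.5-fold higher, and 3.11% and 4.92% lower, so few would be looked for among 6. ERO1B (Entrez gene 56605), an oxidase that recharges protein disulfide isomerases, read 221.6, 286 and 298.1, differences of 0.37 and 0.43. PDIA3 (ERp57), the isomerase that works with calreticulin and calnexin, read 10145.5, 11717.3 and 11384.6, differences of 0.21 and 0.17. PDIA4 (ERp72) read 5055.2, 5376.4 and 5617.4, differences of 0.09 and 0.15. Their treated arrays were all above the control. P4HB, the founding protein disulfide isomerase, was at 0.08 and 0.14 with 3 of 3 probe sets higher, and PDIA6 (P5) was at 0.09 and -0.01.

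ERO1A, the more widely expressed oxidase, went both ways between its probe sets. The brightest was at 0.16 and 0.04, while the transcript-specific one read 1788.4, 1341.8 and 1169.2, differences of -0.41 and -0.61. ERO1A would thus be the lowest of the disulfide enzymes on that probe set.

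**Figure D4:**
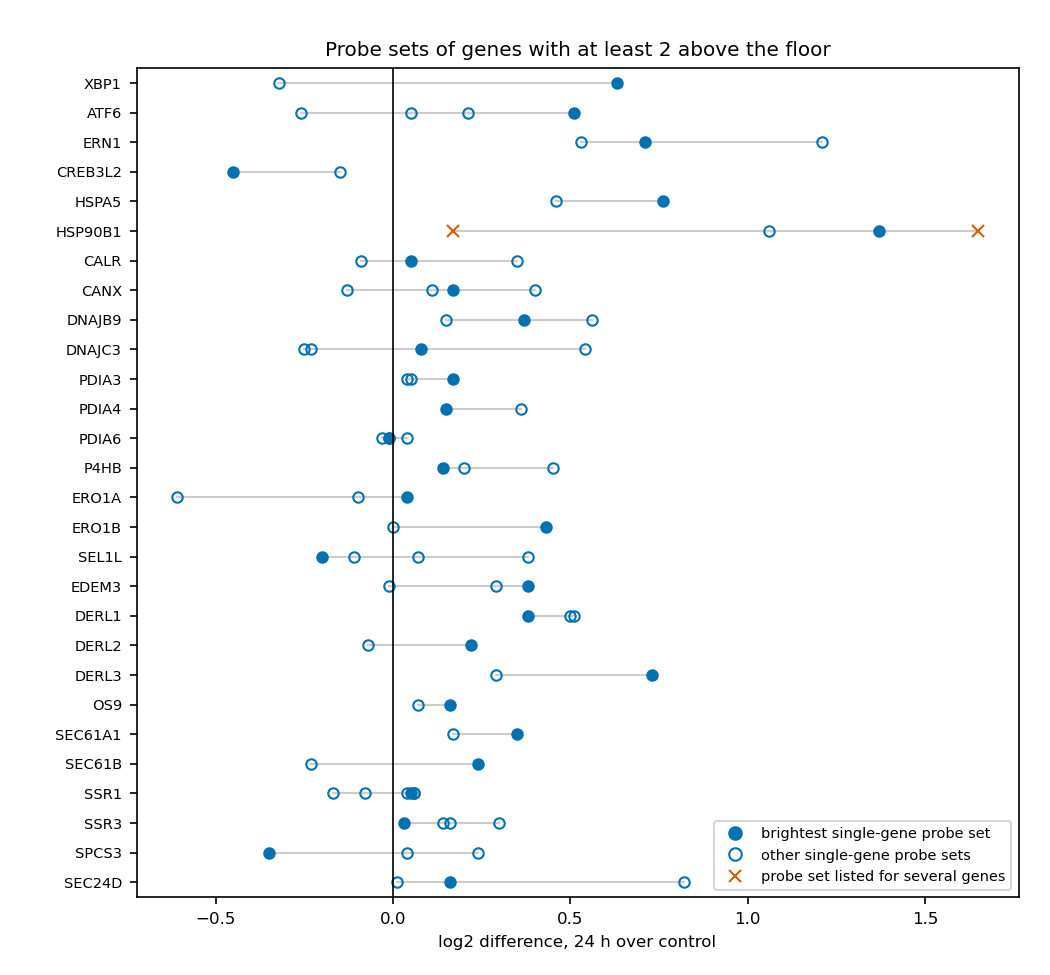
Log2 difference at 24 h over control for each probe set above the floor on at least 1 array, for the 28 genes with at least 2 single-gene probe sets above it; filled points are the brightest single-gene probe set, open points the others, and crosses the probe sets annotated to several genes. All single-gene probe sets lie above 0 for 13 genes, below 0 for CREB3L2, and on both sides of 0 or at 0 for 14, and the HSP90B1 row runs from 0.17 to 1.65.

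Read probe set by probe set, the list kept its direction, with a smaller median at 12 h and about the same at 24 h. Of 93 single-gene probe sets above the floor, 68 were higher at 12 h (73.1%, against 48.9% of 23715 such probe sets on the array) and 69 at 24 h (74.2%, against 49.2%). Their medians were 0.10 and 0.16, against 0.17 at both times for the 39 genes. At 12 h all probe sets were higher for 12 of the 28 genes with at least 2, and lower for CREB3L2 and OS9.

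Degradation factors were divided. Of the 10 measured, 6 were higher at 12 h (60.0%, near the 50.2% of all measured genes) and 8 at 24 h (80.0%, against 48.8%), with medians of 0.20 and 0.23. HERPUD1 (Herp, Entrez gene 9709), a membrane organiser of the HRD1 ligase complex, read 6354.8, 8056.2 and 8802.6, differences of 0.34 and 0.47. DERL1 (Entrez gene 79139), a derlin of the retrotranslocation channel, read 7836.3, 9138.6 and 10213.3, differences of 0.22 and 0.38, and its 3 probe sets above the floor were all higher. Both genes were above the control on both treated arrays. DERL3 (Entrez gene 91319), a derlin induced by reticulum stress, read 66.1, 106.9 and 110, or 1.62-fold and 1.66-fold higher, from a control signal just above the floor. The name of this probe set ends in _x_at, as for HSP90B1. Another DERL3 probe set read 70.4, 53.4 and 86.3, so its direction at 12 h was the opposite, at -0.20. At 24 h that other probe set was at 0.29, short of 1.5-fold. DERL2 was at 0.22 at both times, and SELENOS (VIMP), which recruits the p97 ATPase, at 0.28 and 0.25.

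The mannose-trimming and lectin side of degradation was mixed. EDEM1, which marks misfolded glycoproteins for disposal and is a common XBP1 target, was at -0.11 and -0.21. EDEM2, which makes the first mannose cut, was at 0.18 and 0.16. EDEM3 read 1163.8, 1077.5 and 1518.9, below the control at 12 h and above it at 24 h. SEL1L, the scaffold of HRD1, read 3037.5, 3032.3 and 2636.3, a difference of -0.20 at 24 h, with its 4 probe sets between -0.20 and 0.38. OS9, the lectin that delivers substrates to SEL1L, was at -0.03 and 0.16. The probe set that SYVN1 shares with MIR6751 read 460.3, 526.5 and 462.1, and gives no value for SYVN1 alone.

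Factors of translocation, processing and export were nearest the control, with medians of 0.06 and 0.11. SEC61A1 (Entrez gene 29927), the pore of the translocon, read 2540.7, 2986.6 and 3229.9, differences of 0.23 and 0.35. SEC61B, its small tail-anchored subunit, read 11069.2, 12436.3 and 13036.8, differences of 0.17 and 0.24. On their brightest probe sets the translocon-associated proteins SSR1 and SSR3 differed by at most 0.07, and SEC24D, a cargo adaptor of COPII vesicles, by 0.05 and 0.16. Dimmer probe sets differed more: one of SSR3 was at -0.31 and 0.30, one of SSR1 at -0.10 and -0.17, and one of SEC24D at 0.36 and 0.82. SPCS3, a subunit of signal peptidase, read 4979.1, 4832.9 and 3901.1 and was the 1 gene of this role below the control at both times, at -0.04 and -0.35. Its transcript-specific probe set went the other way at 24 h, at 0.24.

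Sorted by the branch to which they are often assigned, the genes gave similar medians. Of 10 genes often assigned to ATF6, 9 were higher at each time (90.0%, against 50.2% and 48.8% of all measured genes). Their medians were 0.18 and 0.21, and SEL1L was the exception at both times. Of 13 measured genes often assigned to XBP1, 11 and then 10 were higher, with medians of 0.15 and 0.16. Many of these genes respond to both factors, and the branches were not compared by a test.

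The PERK branch stood apart in size, but its list, like the others, was chosen with earlier results of these data known. Of 11 genes on that list 9 were higher at 12 h (81.8%, against 50.2% of all measured genes) and 10 at 24 h (90.9%, against 48.8%). The medians were 0.68 and 0.76, within ranges of -0.06 to 1.67 and of -0.28 to 1.76. At least 1.5-fold higher were 6 of 11 at each time (54.55%), against 3.41% and 4.09% of measured genes. DDIT3 (CHOP), the stress transcription factor, read 649.5, 2071.2 and 2199.2, and ATF4, its activator, read 11494.4, 18390.8 and 19404.3. Both were well above the control on both treated arrays. CHAC1, which degrades glutathione, was at 1.37 and 1.16, and ASNS, asparagine synthetase, at 1.09 and 1.20. PPP1R15A (GADD34), the phosphatase subunit that ends PERK signalling, was at 0.27 and 0.16. Other kinases that phosphorylate eIF2α also raise this list, and their activity was not measured.

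**Figure D5:**
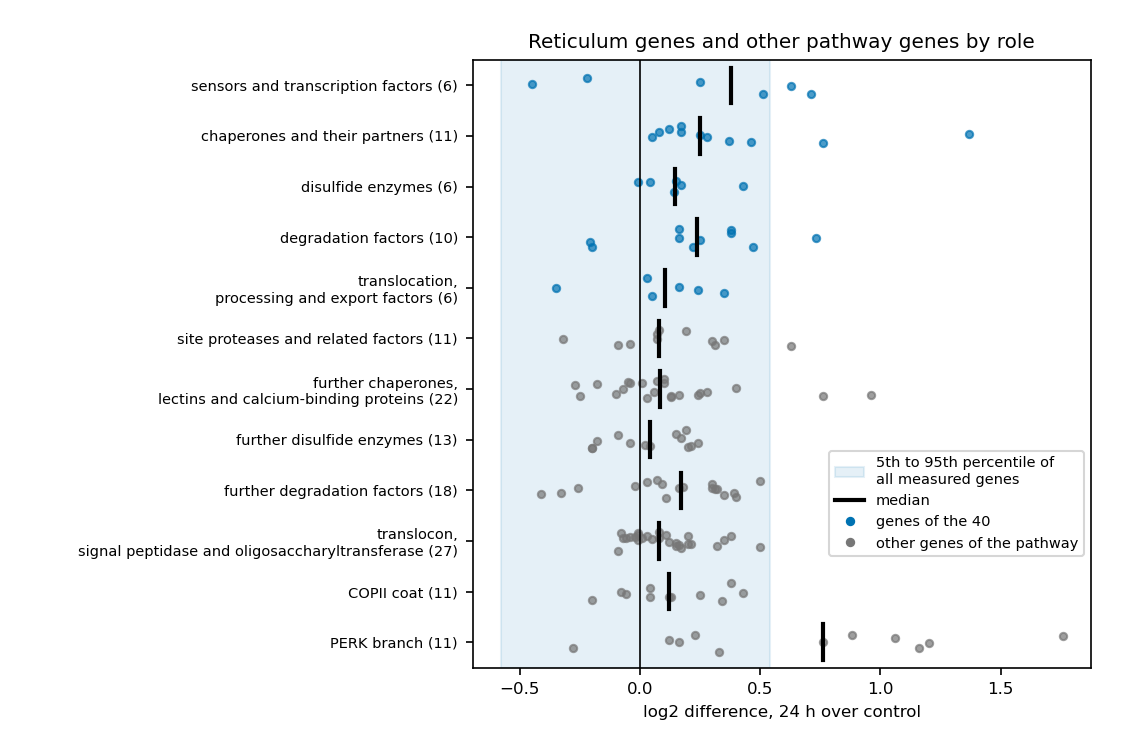
Log2 difference at 24 h over control for the measured genes of each role (blue, the genes described here) and of lists of other genes of the pathway (grey), 1 point per gene with black bars at the medians and the number of genes in brackets; vertical scatter within a row carries no value. The PERK branch has its median at 0.76, and the medians of the other lists lie between 0.04 and 0.38. All lists were chosen with earlier results of these data known.

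Lists of other reticulum genes, the PERK branch aside, also stood slightly above the control, with small positive medians at both times. The highest of these medians was 0.17, for further degradation factors at 24 h, and the 39 genes described here had 0.17 at each time. The small rise was thus not particular to the genes described here. Among 22 further chaperones, lectins and calcium-binding proteins the medians were 0.04 and 0.08. At 12 h 13 were higher (59.1%, against 50.2% of all measured genes) and at 24 h 15 (68.2%, against 48.8%). DNAJC1 (ERdj1), a membrane J-domain protein, read 1194.4, 1353.9 and 2326.8, differences of 0.18 and 0.96, and FKBP10, at the floor in the control and at 12 h, read 104 at 24 h. These were the 2 of that list at least 1.5-fold higher at 24 h (9.09%, against 4.09% of measured genes). GANAB, the catalytic subunit of glucosidase II, was at 0.42 and 0.40. Of 13 measured further disulfide enzymes 11 were higher at 12 h (84.6%) and 8 at 24 h (61.5%), with medians of 0.12 and 0.04. Those highest on the mean of both times were ERP29 at 0.29 and 0.21 and GPX8 at 0.31 and 0.15.

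Of 18 measured further degradation factors 13 and 14 were higher (72.2% and 77.8%, against 50.2% and 48.8% of measured genes). Their medians were 0.11 and 0.17. VCP, the p97 ATPase that pulls substrates from the membrane, was at 0.30 and 0.50 and AUP1 at 0.44 and 0.30. UBE2J1, an E2 enzyme of the reticulum, was lower, at -0.54 and -0.41. Translocon, signal peptidase and oligosaccharyltransferase genes had medians of 0.07 and 0.08, with 21 and 18 of 27 higher (77.8% and 66.7%). None reached 1.5-fold, while 3.41% and 4.09% of measured genes were at least 1.5-fold higher. SEC62 was at 0.27 and 0.50, and DDOST at 0.39 and 0.32. COPII coat genes had medians of 0.14 and 0.12, with 7 and 8 of 11 higher (63.6% and 72.7%). Those highest on the mean of both times were SAR1B at 0.26 and 0.43 and SEC13 at 0.30 and 0.34.

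Among 11 measured site proteases and related factors the medians were 0.03 and 0.08. At each time 8 were higher (72.7%, against 50.2% and 48.8% of measured genes). CREB3 (Luman), a transmembrane factor cut like ATF6, read 886.4, 1272.3 and 1372.7, differences of 0.52 and 0.63. ERN2, the epithelial IRE1 paralogue, read 263.4, 86.2 and 247.2, so it was lower at 12 h by 1.61 on the log2 scale and back near the control at 24 h. CREB3L1 (OASIS) lay at the floor in the control and read 81.9 and 78.1.

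The checks of the arrays were as follows. All 8 epithelial markers were measured, from CLDN4 at 514.8 to KRT18 at 23650.3 in the control, with 3 higher at 12 h and 4 at 24 h and differences from -0.60 (KRT19, 24 h) to 0.79 (CLDN4, 24 h). Of the 4 lung lineage markers on the array NKX2-1 was at the floor on every array and 3 were measured, namely SFTPB at 235.6 and SFTPC at 84.3 in the control and NAPSA above the floor at 24 h alone. SFTPC was at 0.93 and 0.64, and SFTPB at -0.36 and -0.34. Of 6 leukocyte markers 2 were measured, both below 200 signal units, and of 8 fibroblast and endothelial markers 3 were, with COL3A1 at 876.9 in the control, all 3 lower at both times. For ACTB, the 3′ control probe set read 4.95 times the 5′ one on the control array, 5.38 times on the 12 h array and 6.55 times on the 24 h array, a measure of how intact the RNA was. For GAPDH the ratios were 1.21, 1.25 and 1.24. The part of RNA integrity and of the fibroblast markers in the values above was not tested.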

How the data were processed

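RNA of 3 cultures, extracted with Trizol and labelled from 6 μg, was hybridised to 3 arrays, 1 per group, per the labels' protocols. The deposited values are linear signal intensity made by the authors with MAS5, per the submitters' processing notes, whose version and settings are not given in the sources used here. Trimmed by 2% at each end, signals averaged 500.1 on every array. The platform annotation gave 1 gene for 41097 probe sets, several for 1801 and none for 11777. A gene took its brightest single-gene probe set by mean over the 3 arrays. Any signal under the 50th percentile over the 3 arrays, 61.4, was raised to it before log2 differences between arrays were computed, and genes were counted at 1.5-fold. No test was possible, so lists are set beside all 12351 measured genes.

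Signals are given for the main sensors, HSPA5, HSP90B1, HERPUD1 and the 3 genes per role farthest from the control on average, and up to 3 genes, those with the largest mean difference, are named per list of other pathway genes, besides ATF4, DDIT3 and PPP1R15A of the PERK branch. Further signals, of the 40 genes where probe sets or times disagreed and of a few others, were picked after their values were seen. The members and lists were chosen with earlier results of these data known. Alternatives covered scaling (median centring, quantile and cyclic loess, limma 3.58.1), the floor (25th or 65th percentile, or none and 1 added), which probe set stands for a gene, and a 2-fold threshold. The procedure was tested on simulated data in Python 3.11.15.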

Additional observations from a re-analysis of the deposited data

Results flagged for a closer look

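Genes that lay above the control at one time and below it at the other were ATF6B, PDIA6, EDEM3 and OS9. From 12 h to 24 h ATF6B differed by -0.38, PDIA6 by -0.10, EDEM3 by 0.50 and OS9 by 0.19 on the log2 scale. With 1 array per time none of these differences was tested, and those of PDIA6 and OS9 are of the size of the robust SD of all measured genes between the treated arrays, 0.183, or smaller. For EDEM3 a second probe set was at 0.29 and another at -0.01 at 24 h.

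A signal outside the gene values was found in the probe set annotated to both HSP90B1 and MIR3652, which stood 1.65 above the control at 24 h on the log2 scale. A brighter probe set with the same annotation stood at 0.17.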

How the results depend on the processing

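Of 194 values of the list and its roles under alternative settings, 182 stayed within 0.183 of the reported value (the robust SD between the treated arrays, in place of a replicate spread), or within 1.5 times of a count. A reversal was scored only for medians at least 0.183 from 0, and none of those reversed. Counts and smaller medians could not be scored as reversed. The median of the list from 12 h to 24 h, 0.01 as reported, was -0.02 with median centring. With the median over probe sets, 0 genes were 1.5-fold lower at 12 h, 3 were 1.5-fold higher at 24 h, and the sensors had a 24 h median of 0.14. With transcript-specific probe sets, which left 30 genes, 0 were 1.5-fold lower at 12 h, 3 were higher and 1 (ERO1A) lower at 24 h, and 0 were 1.5-fold higher and 13 higher at all from 12 h to 24 h. HSP90B1 was not among those 30 genes. With probe sets of several genes kept, a setting chosen after seeing the data, 0 genes were 1.5-fold higher from 12 h to 24 h, because HSP90B1 then took its brightest probe set. At 2-fold, 0 were higher and 0 lower at 12 h and 1 was higher at 24 h. The median of the genes measured under each setting, 30 with transcript-specific probe sets, lay between 0.15 and 0.19 at 12 h and between 0.16 and 0.23 at 24 h. Of 1050 values of single genes and of the median of all genes, 39 moved further, and of the values past 1.5-fold 1 changed sign, DERL3 at 12 h, which was at -0.20 with transcript-specific probe sets. Counting smaller values too, 10 of the 78 differences from the control, in 8 genes (CANX, DERL3, DNAJC3, ERO1A, PDIA6, SPCS3, SSR1 and SSR3), took the opposite sign under at least 1 alternative, in each case one that changed the probe set of the gene. Those of DERL3 at 12 h and SPCS3 at 24 h (-0.35 as reported, 0.24 with transcript-specific probe sets) were beyond 0.183 on both sides. Scaling moved the median of all genes by at most 0.03 from the value of 0.00 at 12 h. No paired analysis was possible because each group held 1 array, and for the same reason no array could be left out. Genes near the floor, such as DERL3, are limited by signal over background.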
